A study of Bos taurus with 8 samples.

Results

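The BMP genes examined here are 10 genes of bone morphogenetic protein signalling in bovine granulosa cells, and none of them passed the test of a difference between High A4 and Control cows. They are the ligands BMP2, BMP4 and BMP6, the receptors BMPR1A, BMPR1B and BMPR2, the secreted antagonist GREM1 and the target genes ID1, ID2 and ID3. Each was taken as the probe set that the platform table assigns to that single gene symbol, and each of the 10 genes had 1 such probe set, out of 26773 probe sets and 18010 genes with a single symbol. The cows were beef cows (75% Red Angus and 25% MARC III) on a synchronized cycle, with a progesterone device in place for 7 days, prostaglandin at its removal and ovariectomy approximately 36 h later. High A4 cows (n = 4) had a mean androstenedione (A4) concentration of 356 ng/mL in the fluid of the estrogen-active dominant follicle, and Control cows (n = 4) had a mean of 1.9 ng/mL. Both groups received the same synchronization and no androgen was given. The methods state that these cows came from the highest end of the High A4 herd group and the lowest end of the Control herd group. Mural and cumulus granulosa cells were collected as 1 sample at a purity of at least 94%, and 1 Affymetrix Bovine Gene 1.0 ST array was hybridized per cow.

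BMP ligands are secreted dimers that bind a complex of type I receptors (BMPR1A, BMPR1B) and a type II receptor (BMPR2). The type II receptor activates the type I receptor, which phosphorylates SMAD1, SMAD5 and SMAD9, and these enter the nucleus with SMAD4 and switch on targets such as the ID genes. ID proteins are helix-loop-helix proteins without a DNA-binding region that bind E proteins and keep them off DNA. In the follicle, BMPs from theca cells, granulosa cells and the oocyte hold back luteinization of granulosa cells, and in culture they lower the androgen output of bovine theca cells. No promoter, protein or probe sequence of these genes was used here.

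Intensities are given in arbitrary units, normalized and not in log, and 100 is the noise threshold of the methods. On the log2 scale, limma was run on the 10120 probe sets whose mean exceeded 100 in High A4, in Control or in both, with Benjamini-Hochberg adjustment over all of them. Genes under the threshold were tested in the same way over all 26773 probe sets. Of the 10 BMP genes 6 were above the threshold (BMP4, BMPR1A, BMPR1B, BMPR2, ID2 and ID3) and 4 were under it (BMP2, BMP6, GREM1 and ID1). High A4 arrays had 9065 to 9403 probe sets above 100 and Control arrays 9551 to 9687, and the number of arrays limits the precision. Of 12 granulosa cell markers 11 were above the threshold, such as the aromatase gene CYP19A1 at 7106 in High A4 and 6741 in Control. Over the probe sets tested, the median log2 fold change was -0.16 and 74.3% were lower in High A4. Over all probe sets the median was -0.01 and 50.7% were lower.

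Of the 10 genes 0 passed at an adjusted p under 0.05 from limma. Above the noise threshold, 1.56% of all probe sets rose and 0.623% fell, and without the noise filter 10.1% of all probe sets passed in either direction. At an unadjusted p under 0.05 the count was also 0 of 10, where 21.9% of the probe sets above the threshold and 25% of all probe sets had such a p. An analysis of variance without moderation, the kind of test the methods name, also gave 0 of 10 by either criterion. In none of the 10 genes were the 4 High A4 cows separated from the 4 Control cows, whereas 16.9% of all probe sets did not overlap. The genes were divided in direction, 5 higher and 5 lower in High A4, with a median log2 fold change of 0.07.

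**Figure D1:**
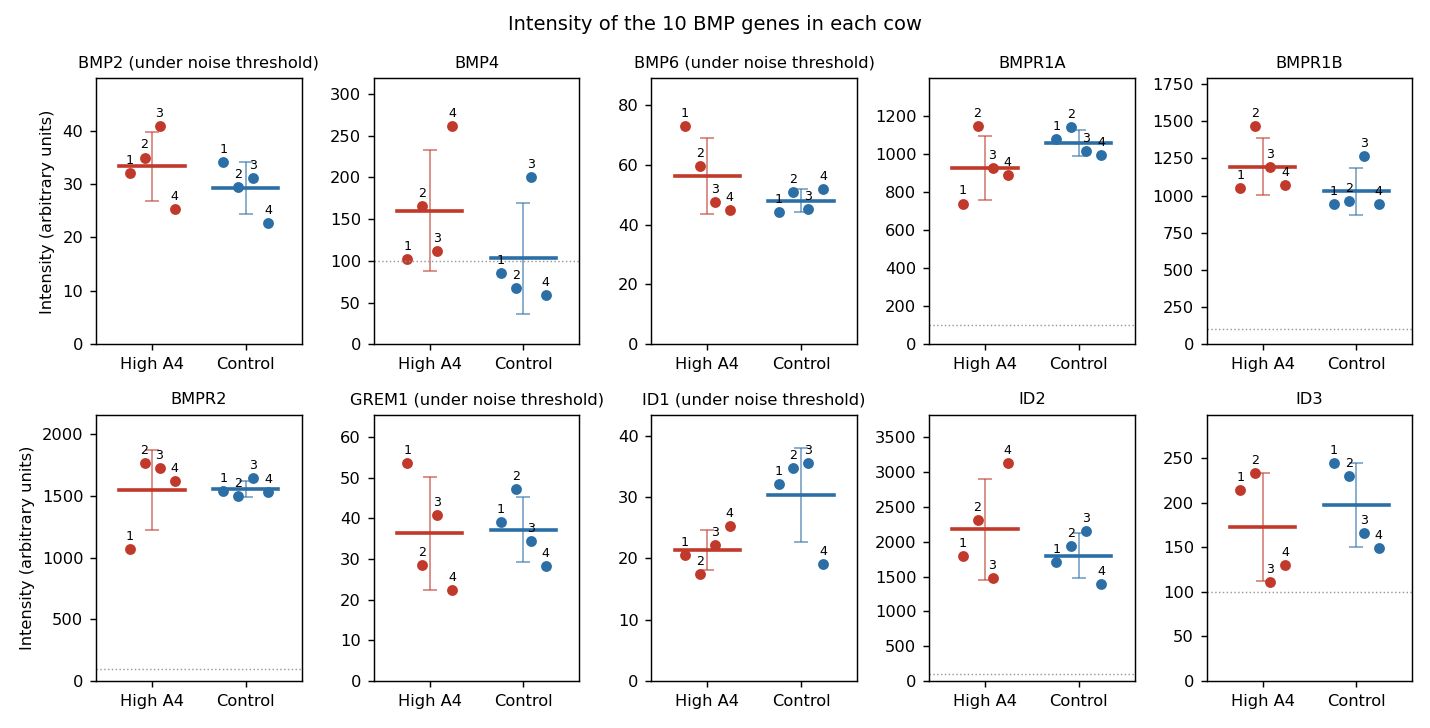
Intensity (arbitrary units, linear axes from 0) of the 10 genes in 4 High A4 cows (left) and 4 Control cows (right), with the cow's replicate number above each point, the group mean as a thick line, the SD as a bar and the noise threshold of 100 as a dotted line where the axis reaches it. In every panel the points of both groups overlap, and BMP4 ranges from 58.6 to 261.

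The ligand BMP4 had the largest log2 fold change of the 10 genes and also the largest standard error. BMP4 (probe set 12693777), which theca cells secrete in rodents, had intensities of 102, 165, 112 and 261 in High A4 replicates 1 to 4, against 85.6, 66.9, 201 and 58.6 in Control replicates 1 to 4. All High A4 cows lay above 3 of the Control cows, and Control replicate 3 lay above 3 of the High A4 cows. High A4 cows averaged 160 ± 72.9 and Control cows 103 ± 66.2 (mean ± SD, n = 4 each), and the log2 fold change was 0.72 (SE, the standard error, 0.40, limma adjusted p = 0.309). The 95% interval of the fold change was 0.88 to 3.07, which includes equal levels and a rise of more than 2-fold. Without Control replicate 3 the log2 fold change was 1.10 (unadjusted p = 0.00648, adjusted p = 0.13 from limma), and without High A4 replicate 4 it was 0.45 (unadjusted p = 0.282, adjusted p = 0.464 from limma).

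Some theca and stromal markers rose in High A4, and their part in the BMP4 values was not tested. The summed intensity of 12 stroma and fibroblast markers was 2089 to 3892 in High A4 and 874 to 2860 in Control. That of 8 theca markers was 1974 to 4755 in High A4 and 926 to 1795 in Control. Such sums weigh the brightest genes most. In High A4 replicate 1 CYP17A1 had 1772 and INSL3 2203, and in Control replicate 1 LUM had 1905. INSL3 and LUM did not pass (log2 fold change 1.13 and 0.80, limma adjusted p = 0.172 and 0.424). The theca markers NR2F2 and PTCH1 were lower in High A4 (-0.18 and -0.14). Of the 12 stromal markers 11 were higher in High A4. The threshold was exceeded by 5 of the 12, of which 2 passed (DCN, log2 fold change 1.35, and OGN, 1.53). Of the 8 theca markers 6 were higher. The threshold was exceeded by 5 of the 8, of which 2 passed (CYP17A1, 2.59, and ALDH1A1, 1.87). OGN and ALDH1A1 had a mean above 100 in High A4 alone (107 and 189, against 37.5 and 53.2 in Control). Over all probe sets 4 stromal and 3 theca markers passed. These added COL1A2 (0.70, limma adjusted p = 0.0277), COL3A1 (1.31, limma adjusted p = 0.000647) and HPGD (0.70, limma adjusted p = 0.0337), all under the threshold. ALDH1A1, COL3A1, HPGD, INSL3, LUM, NR2F2 and PTCH1 were named after their values were seen. The sums of 7 smooth muscle markers (446 to 654 in High A4 and 546 to 621 in Control) and of 9 leukocyte markers (321 to 638 in High A4 and 305 to 565 in Control) overlapped between the groups. Of the 7 smooth muscle markers 5 were higher and 2 lower in High A4. RGS5 alone of them passed over all probe sets (log2 fold change 0.87, limma adjusted p = 0.00864). The 2 lower markers were MYH11, without overlap (-0.31, limma adjusted p = 0.149 over all probe sets), and MCAM (-0.50, limma adjusted p = 0.197). MCAM alone of the 7 was above the threshold. RGS5, MYH11 and MCAM were named after their values were seen. None of the leukocyte markers passed. In whole-cell RNA, fewer cells of a type and less RNA per cell cannot be told apart.

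BMP2 and BMP6 were dim in both groups. BMP2 (probe set 12716976), a ligand that in sheep and cattle is described in granulosa cells, had 32.1, 35, 40.8 and 25.3 in High A4 replicates 1 to 4, against 34.1, 29.4, 31.2 and 22.7 in Control replicates 1 to 4. BMP6 (probe set 12806832), known from oocytes and granulosa cells, had 72.9, 59.6, 47.7 and 45 in High A4 replicates 1 to 4, against 44.2, 50.9, 45.2 and 51.9 in Control replicates 1 to 4. High A4 replicates 2 and 3 were above every Control cow for BMP2 and High A4 replicates 1 and 2 for BMP6, and the other High A4 cows lay within the Control range. The log2 fold changes were 0.18 for BMP2 (SE 0.19, limma adjusted p = 0.591 over all probe sets) and 0.20 for BMP6 (SE 0.17, limma adjusted p = 0.5 over all probe sets). The 500 probe sets nearest in intensity had a median log2 fold change of 0.10 for BMP2 and 0.03 for BMP6. The sign of the BMP2 difference turned with quantile normalization (-0.016) and with cyclic loess (-0.010).

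The 3 receptors were above the noise threshold in every cow, and none of them passed. BMPR1A (probe set 12825944), a type I receptor also known as ALK3, had 739, 1145, 928 and 888 in High A4 replicates 1 to 4, against 1078, 1141, 1016 and 994 in Control replicates 1 to 4. Of the 4 High A4 cows 3 lay below every Control cow, and High A4 replicate 2 lay above all of them. High A4 cows averaged 925 ± 167 and Control cows 1057 ± 66.2 (mean ± SD, n = 4 each), with a log2 fold change of -0.21 (SE 0.15, limma adjusted p = 0.418), against -0.11 for probe sets of like intensity.

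BMPR1B (probe set 12873401) is the type I receptor ALK6, in which the Booroola change of sheep raises the ovulation rate. It had 1050, 1465, 1193 and 1071 in High A4 replicates 1 to 4, against 944, 960, 1263 and 942 in Control replicates 1 to 4. As with BMP4, Control replicate 3 stood above the other Control cows, all of which lay below the lowest High A4 cow. High A4 cows averaged 1195 ± 191 and Control cows 1027 ± 158 (mean ± SD, n = 4 each), with a log2 fold change of 0.22 (SE 0.16, limma adjusted p = 0.423), while probe sets of like intensity had a median of -0.11. Its unadjusted p was 0.0418 and its adjusted p 0.308 from limma when the arrays were centred on the median of the probe sets above the threshold.

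BMPR2 (probe set 12775041), the type II receptor, had 1069, 1766, 1725 and 1622 in High A4 replicates 1 to 4, against 1541, 1496, 1647 and 1527 in Control replicates 1 to 4. High A4 replicate 1 was low, and each of the other High A4 cows lay above at least 3 of the 4 Control cows. High A4 cows averaged 1545 ± 323 and Control cows 1553 ± 65.6 (mean ± SD, n = 4 each), with a log2 fold change of -0.03 (SE 0.17, limma adjusted p = 0.916). Without High A4 replicate 1 the log2 fold change was 0.13 (adjusted p = 0.5 from limma). The 95% intervals of the fold change were 0.69 to 1.09 for BMPR1A, 0.91 to 1.48 for BMPR1B and 0.75 to 1.27 for BMPR2, so a change of 2-fold in either direction lay outside each of them.

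**Figure D2:**
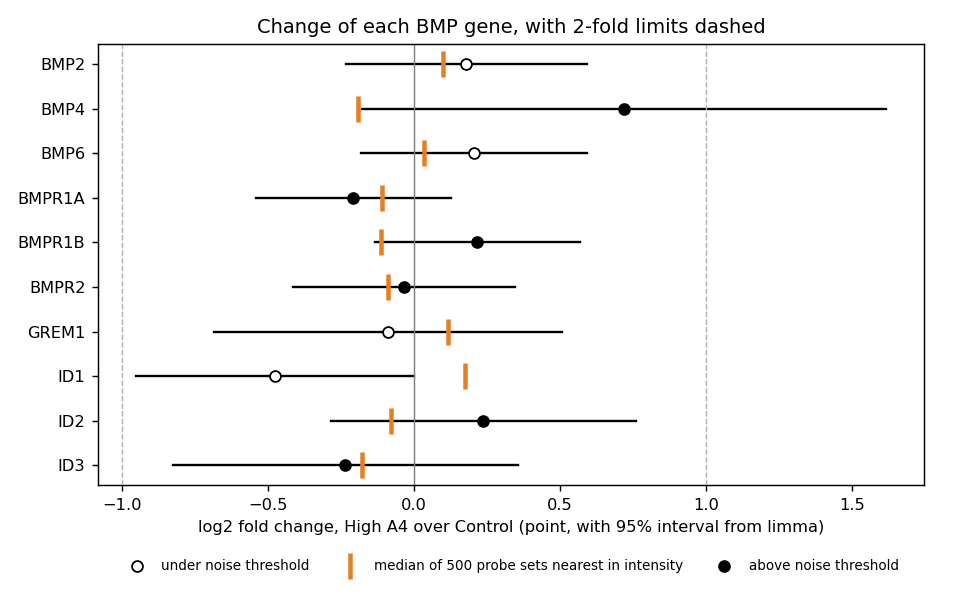
Log2 fold change (High A4 over Control, horizontal axis) of the 10 genes with 95% intervals from limma as black lines, filled points for genes above and open points for genes under the noise threshold, the median of the 500 probe sets nearest in intensity as an orange mark, and dashed lines at a 2-fold change. The interval of every gene includes 0, and only that of BMP4 reaches a 2-fold change.

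GREM1 (probe set 12696603), which encodes gremlin, binds BMP2 and BMP4 outside the cell and is a product of cumulus cells in mice. It had 53.6, 28.6, 40.8 and 22.3 in High A4 replicates 1 to 4, against 39, 47.1, 34.5 and 28.2 in Control replicates 1 to 4. The High A4 cows held both the highest and the lowest value, and all intensities were under the noise threshold. The log2 fold change was -0.09 (SE 0.27, limma adjusted p = 0.87 over all probe sets), with a 95% interval of the fold change of 0.62 to 1.42. It became 0.12 without High A4 replicate 4 and 0.033 without Control replicate 2.

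The 3 ID genes did not move in 1 direction. ID2 (probe set 12704320) had 1797, 2307, 1473 and 3132 in High A4 replicates 1 to 4, against 1706, 1934, 2155 and 1397 in Control replicates 1 to 4. High A4 replicates 2 and 4 were above every Control cow, and High A4 replicate 3 was near the lowest Control cow. High A4 cows averaged 2178 ± 723 and Control cows 1798 ± 324 (mean ± SD, n = 4 each), with a log2 fold change of 0.24 (SE 0.23, limma adjusted p = 0.556). ID3 (probe set 12778449) had 215, 234, 111 and 130 in High A4 replicates 1 to 4, against 245, 231, 166 and 149 in Control replicates 1 to 4. Each group held a brighter and a dimmer pair of cows. The log2 fold change of ID3 was -0.24 (SE 0.27, limma adjusted p = 0.605), close to the median of -0.18 for probe sets of like intensity.

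ID1 (probe set 12714001), the classical BMP target, came nearest to the threshold. It had 20.6, 17.5, 22.2 and 25.3 in High A4 replicates 1 to 4, against 32.1, 34.7, 35.6 and 19.1 in Control replicates 1 to 4. All High A4 cows lay below 3 of the Control cows, and Control replicate 4 fell among the High A4 cows. High A4 cows averaged 21.4 ± 3.27 and Control cows 30.4 ± 7.64 (mean ± SD, n = 4 each), and both are far under the noise threshold. The log2 fold change was -0.48 (SE 0.22, unadjusted p = 0.0502, limma adjusted p = 0.201 over all probe sets), while the probe sets of like intensity had a median of 0.18. Without Control replicate 4 it was -0.69 (adjusted p = 0.036 from limma over all probe sets), and with an offset of 50 it was -0.17 and with quantile normalization -0.72 (adjusted p = 0.226 and 0.0785 from limma). Over its 17 alternatives the adjusted p lay between 0.036 and 0.404, and the unadjusted p was under 0.05 in 6.

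The 95% interval of the fold change stayed within a 2-fold change in both directions for 9 of the 10 genes, the exception being BMP4. For the 4 of them under the noise threshold (BMP2, BMP6, GREM1 and ID1) this describes the intensities and sets no limit on the change in transcript. The coefficient of variation between cows was larger in High A4 than in Control for 8 of the 10 genes, where the same held for 67.2% of all probe sets. For BMPR2 it reached 20.9% in High A4, against 4.22% in Control, and 18.1% in High A4 and 6.26% in Control for BMPR1A, and it was smaller in High A4 for BMP4 and ID1. Control replicate 4 had the lowest intensity of its group in 8 of the 10 genes and High A4 replicate 1 in 4 of them. Control replicate 3 had the highest of its group in 5.

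Among the 45 pairs of these genes over the 8 cows, BMP4 and ID2 had the highest Pearson's r, while BMP4 and BMPR1B had the highest Spearman's rho (0.81, exact permutation p = 0.0218, adjusted p = 0.551, with r of 0.66). For BMP4 and ID2 on log2 intensities Pearson's r was 0.82 (exact permutation p = 0.0117) and Spearman's rho was 0.76 (exact permutation p = 0.0368), both two-sided, and neither passed after Benjamini-Hochberg adjustment over the 45 pairs (adjusted p = 0.525 and 0.551). Without the 2 cows farthest from the median of BMP4, High A4 replicate 4 and Control replicate 3, r was 0.59. With the group means removed r was 0.80. Of the 45 pairs 0 passed after adjustment. At an unadjusted exact permutation p under 0.05 there were 1 by Pearson's r and 3 by Spearman's rho.

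**Figure D3:**
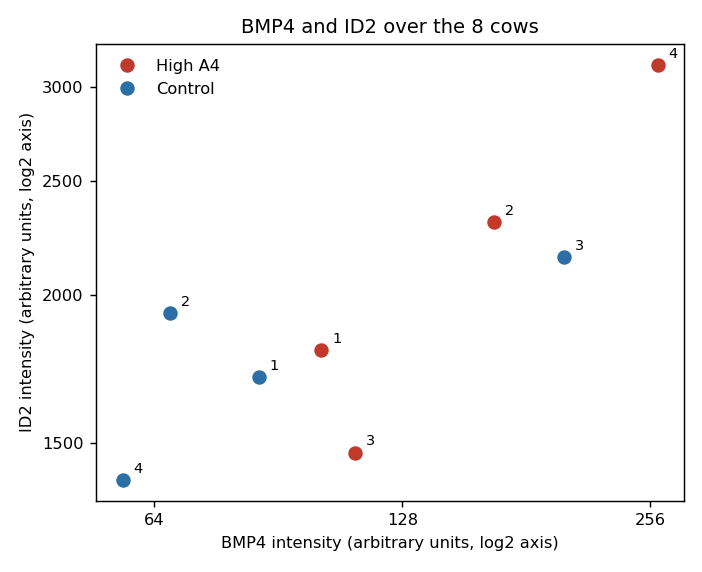
BMP4 against ID2 intensity (arbitrary units, log2 axes) in 4 High A4 cows (red) and 4 Control cows (blue), labelled by replicate number. The cows with the highest BMP4 (High A4 replicate 4, 261) and the lowest BMP4 (Control replicate 4, 58.6) also had the highest and lowest ID2 (3132 and 1397).

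Among 68 other genes of the pathway written from general knowledge, 63 were measured and 23 were above the noise threshold. Of these 23 genes 0 passed in limma or in an analysis of variance. With array weights 3 of the 23 passed (BMP8B, ACVR2A and FSTL1), where 1267 of 10120 probe sets did. These weights ran from 0.226 for High A4 replicate 1 to 5.02 for Control replicate 2. Without weights the log2 fold changes were 0.56 for BMP8B, 0.35 for ACVR2A and 0.44 for FSTL1 (limma adjusted p = 0.11, 0.196 and 0.172). The groups did not overlap for BMP8B, whose mean was 142 in High A4 and 95.1 in Control, and they overlapped for ACVR2A and FSTL1. Without the noise filter 3 of the 63 rose and 0 fell, and at an unadjusted p under 0.05 9 were higher and 2 lower (10.1% and 25% of all probe sets in either direction). Most of the probe sets that passed without the filter also rose, with 2267 higher and 440 lower in High A4. The groups did not overlap in 9 of the 63 (14.3%, against 16.9% of all probe sets), 8 higher and 1 lower. The median log2 fold change was 0.04 over the 63 and -0.10 over the 23 above the threshold, beside -0.01 and -0.16 over all probe sets and those tested.

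All 3 genes that rose without the noise filter were dim. BMP15, an oocyte factor, had 36.9, 33.2, 34.9 and 29.3 in High A4 replicates 1 to 4, against 18.5, 18.8, 23.7 and 19.8 in Control replicates 1 to 4 (log2 fold change 0.73, SE 0.14, limma adjusted p = 0.0087 over all probe sets). The groups did not overlap, and probe sets of like intensity had a median of 0.15. The other 7 oocyte markers, all under the threshold, had sums of 139 to 185 in High A4 and 126 to 149 in Control, which overlapped. With BMP15 counted, all 8 oocyte markers were higher in High A4. Probe sets of like intensity also had positive medians, from 0.07 for ZAR1 to 0.30 for OOSP2. The log2 fold changes of ZP3 (0.05) and ZP4 (0.14) lay below these medians (0.16 and 0.27), and the other oocyte markers lay above theirs. In 3 of the 8 the groups did not overlap, where 16.9% of all probe sets did not. Besides BMP15, OOSP2 passed over all probe sets (log2 fold change 0.64, limma adjusted p = 0.0271). OOSP2, ZP3, ZP4 and ZAR1 were named after their values were seen. TLL1, a protease that in vertebrate development cleaves the BMP antagonist chordin, had 33.5, 25.7, 45.7 and 30 in High A4 replicates 1 to 4, against 16.3, 13.7, 16 and 14.3 in Control replicates 1 to 4 (log2 fold change 1.13, SE 0.18, limma adjusted p = 0.00293 over all probe sets). BMP5, a ligand, had 24.8, 11.6, 26.9 and 13.1 in High A4 replicates 1 to 4, against 7.37, 8.63, 8.49 and 8.54 in Control replicates 1 to 4 (log2 fold change 1.12, SE 0.27, limma adjusted p = 0.0241 over all probe sets). Probe sets of like intensity had a median of 0.34 for BMP5 and 0.18 for TLL1. High A4 replicates 1 and 3 lay far above the other cows in BMP5. BMP5 passed in 7 of 17 alternatives. Its call was lost with quantile normalization (adjusted p = 0.0946), cyclic loess (0.0614), an offset of 50 (0.118) and analysis of variance (0.108), and without High A4 replicate 1 or 3 or any single Control cow (log2 fold change 0.92 to 1.14, adjusted p from 0.0548 to 0.0685 from limma). BMP15 and TLL1 passed in each of the 17. With an offset of 50 added to the intensities the log2 fold changes were 0.24 for BMP5, 0.25 for BMP15 and 0.36 for TLL1.

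Of the 8 further receptors and coreceptors measured, 6 were higher and 2 lower in High A4, and none passed. ENG, the coreceptor endoglin and also a marker of endothelium, had 139, 126, 82.8 and 152 in High A4 replicates 1 to 4, against 59.1, 98.4, 77 and 73 in Control replicates 1 to 4 (log2 fold change 0.69, SE 0.22, limma adjusted p = 0.13). High A4 replicate 3 overlapped with the Control cows. The sum of 9 endothelial markers, all under the threshold, was 265 to 329 in High A4 and 239 to 307 in Control. Of these 9 markers 6 were higher and 3 lower in High A4. EMCN alone passed over all probe sets (log2 fold change 1.35, limma adjusted p = 0.0014), and it was named after its value was seen. The part of endothelial cells in the ENG values was not tested. RGMB, a membrane coreceptor for BMP ligands, had 90.5, 100.1, 109 and 100.2 in High A4 replicates 1 to 4, against 135, 123, 119 and 116 in Control replicates 1 to 4 (log2 fold change -0.30, SE 0.12, limma adjusted p = 0.193). The cows of RGMB did not overlap between groups, and probe sets of like intensity had a median of -0.20.

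Of 15 SMADs and SMAD regulators 12 were lower and 3 higher in High A4, with a median log2 fold change of -0.22, and none passed. Of the 10 above the threshold 9 were lower, with a median of -0.19 beside -0.16 over all probe sets tested. SMAD4, the partner shared by BMP and TGF-beta signals, had 1034, 1250, 1392 and 1405 in High A4 replicates 1 to 4, against 1674, 1676, 1365 and 1594 in Control replicates 1 to 4 (log2 fold change -0.32, SE 0.14, limma adjusted p = 0.23). Control replicate 3 lay among the High A4 cows for SMAD4, and the other Control cows lay above all of them. SMAD1 and SMAD5, which BMP receptors phosphorylate, had log2 fold changes of -0.16 and -0.35 (adjusted p = 0.473 and 0.333 from limma), and the inhibitory SMAD6 and SMAD7, under the threshold, -0.32 and -0.29 (adjusted p = 0.48 and 0.374 from limma over all probe sets). These 4 genes were named after their values were seen. TOB1, an antiproliferative protein that binds SMADs, had 949, 932, 840 and 938 in High A4 replicates 1 to 4, against 800, 775, 831 and 596 in Control replicates 1 to 4, with no overlap (log2 fold change 0.30, SE 0.14, limma adjusted p = 0.244).

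Among 16 further antagonists, binding proteins and proteases 10 were higher and 6 lower in High A4. The protease TLL1 alone passed, without the noise filter. The 9 other target genes measured were all under the threshold, 4 higher and 5 lower, with a median of -0.05. Of the E proteins that ID proteins bind, TCF12 had a log2 fold change of -0.19 (adjusted p = 0.411 from limma), TCF3 of 0.07 (adjusted p = 0.839 from limma) and TCF4, under the threshold, of -0.13 (adjusted p = 0.792 from limma over all probe sets).

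**Figure D4:**
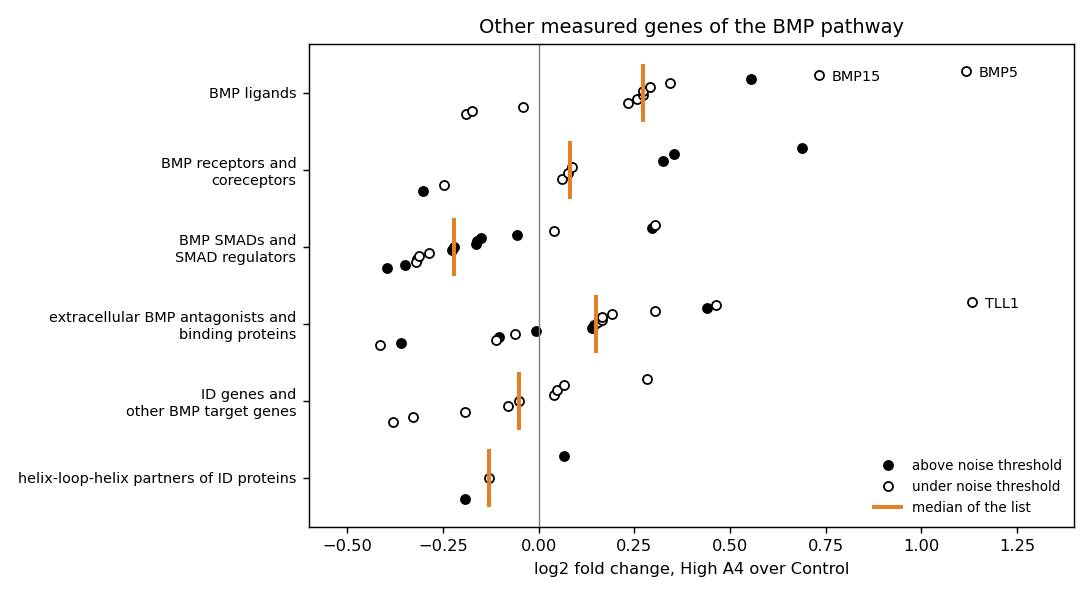
Log2 fold change (High A4 over Control, horizontal axis) of the 63 other measured genes of the BMP pathway in 6 lists (vertical axis), with filled points above and open points under the noise threshold and the median of each list as an orange line. The medians are 0.27 for ligands, 0.08 for receptors, -0.22 for SMADs and 0.15 for the list of antagonists, binding proteins and proteases. They are -0.05 for target genes and -0.13 for E proteins, and the 3 labelled genes are dim.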

How the data were processed

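For 8 arrays the authors deposited normalized intensities on a linear scale. The methods name Robust Multi-Array Averaging, while GCRMA and Affymetrix Expression Console stand in the submitters' processing notes. The sources used here do not settle which of them made the values, and they give no versions. Log2 intensities were fitted with limma 3.58.1 (R 4.3.3). A single symbol was given for 18457 probe sets by the platform annotation, while 688 had several and 7628 none. The symbols of all 10 BMP genes matched current gene names by gene ID in ARS-UCD2.0. Where a gene had several probe sets, the one with the highest mean over the 8 arrays was used. The fit was tested on simulated data. The BMP genes, pathway lists and marker lists were chosen with earlier results of these data known. The labels give a replicate number and name no batch. Each limma p-value sets the difference between groups against the spread between these cows, moderated over the probe sets fitted.

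Of the pathway lists the text names each gene that passed (up to 4 per list), or otherwise the 2 above the noise threshold with the smallest p, beside a few cell markers. The alternatives changed 1 choice at a time. They were leaving out each cow, dropping the noise filter or asking for a mean above 100 over the 8 arrays, centring arrays in 2 ways, quantile normalization or cyclic loess, adding 50 to the intensities, a robust prior with an intensity trend, array weights, plain analysis of variance and blocking on the replicate number. No BMP gene had another probe set to try.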

Additional observations from a re-analysis of the deposited data

Results flagged for a closer look

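Each BMP gene was checked in each group for a cow far from the others by Dixon's test, in which the gap to the nearest cow is divided by the group's range on the log2 scale. Chance passes about 1 in 20 such groups, and of the 20 groups tested 3 passed. BMPR1B in Control replicate 3 had an intensity of 1263, above the other Control cows, with a gap of 0.934 of the range. BMPR2 in High A4 replicate 1 had 1069, below the other High A4 cows, with a gap of 0.83 of the range. ID1 in Control replicate 4 had 19.1, below the other Control cows, with a gap of 0.836 of the range.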

How the results depend on the processing

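None of the 10 BMP genes passed in limma under any alternative that kept all 8 cows, and with a cow left out ID1 alone passed, without Control replicate 4. The number of probe sets passing was 221 (158 higher and 63 lower). It was 2707 without the noise filter, 85 with a mean over all 8 arrays above 100, 1267 with array weights, 120 by analysis of variance, and 123 to 877 with a cow left out (877 when High A4 replicate 4 was dropped, 133 when High A4 replicate 3 was, 135 for Control replicate 1 and 123 for Control replicate 2). The split was 328 higher and 939 lower with array weights, 302 and 575 when High A4 replicate 4 was dropped, 168 higher and 19 lower with quantile normalization, 182 and 18 with cyclic loess, and 183 and 19 with arrays centred on the median of the probe sets above the noise threshold, an alternative chosen after seeing the data that gave a median of -0.0037 in place of -0.16. Of the other pathway genes 3 passed without the noise filter and 3 with array weights (BMP8B, ACVR2A and FSTL1), against 0. The log2 fold change of BMPR2 (-0.03) was 0.13 with that centring, 0.034 with quantile normalization, 0.060 with cyclic loess, 0.11 with array weights and -0.11 to 0.13 with a cow left out. That of GREM1 (-0.09) was 0.071 with that centring and -0.30 to 0.12 with a cow left out. That of BMP2 (0.18) was -0.016 with quantile normalization and -0.010 with cyclic loess. The cause was not tested. With the replicate number as a block (replicate block) 160 probe sets and 0 of the BMP genes passed. Deviations of same-numbered cows correlated between -0.224 and 0.203, and those of cows with different numbers between -0.19 and 0.248. These few correlations cannot show whether same-numbered cows were handled together.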
